A study of Rattus norvegicus with 40 samples.

Results

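The 34 genes described here carry out fatty acid oxidation and ketone body synthesis in liver. They were chosen by name from these pathways (activation of fatty acids, the carnitine shuttle, mitochondrial and peroxisomal beta-oxidation, electron transfer, ketone bodies and the regulators of these steps), and all 34 were among the 17337 genes of the count files. RNA of the livers of 24 male Fischer 344 rats, a common inbred laboratory strain, had been sequenced as 40 libraries. From the age of 7 weeks, treated rats received 50 mg/kg of diethylnitrosamine (DEN), a liver carcinogen that hepatocytes activate, by weekly intraperitoneal injection. They were examined after 8 weeks of injections, after 14 weeks, or after 14 weeks followed by 6 weeks without DEN (20 weeks). Each time point had its own no DEN rats, matched in age. The DEN was diluted in pure olive oil, and no injection of oil is named for the no DEN rats. The part of the oil in the differences from no DEN liver was not tested. The liver outside the tumors (non-tumoral liver, NT) was taken from every rat, and at 14 and 20 weeks 2 tumor nodules (T) per DEN rat were sequenced separately. Each of the 8 groups (no DEN and DEN NT at 8, 14 and 20 weeks, and nodules at 14 and 20 weeks) had 4 rats. Both nodules of an animal were summed into 1 count per gene, so every value below belongs to 1 rat and n = 4 rats per group.

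Fatty acids taken up by the hepatocyte are joined to coenzyme A, and long chains then cross into the mitochondrion as carnitine esters. There each turn of beta-oxidation (dehydrogenation, hydration, another dehydrogenation and thiolysis) removes an acetyl unit and passes electrons to the respiratory chain. Peroxisomes shorten very long and branched chains by a parallel set of enzymes. In the fasting liver much of the acetyl-CoA leaves as ketone bodies, and the nuclear receptor PPAR-alpha, which binds DNA together with RXR-alpha, is known to switch on many of these genes.

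The libraries held 20528515 to 160622633 counted read pairs, with a median of 30477421. The largest belonged to the NT liver of 1 DEN rat at 20 weeks (H26), and the next largest library held 39355849. Albumin took 10.39% to 18.99% of the counted pairs of every library. Levels are given as CPM (counts scaled to a common library total, with normalisation by the trimmed mean of M-values, TMM), and they are compared between groups for 1 gene at a time. A gene was called when its log2 fold change was at least 0.5 in size and its adjusted p at most 0.05 in the quasi-likelihood test of edgeR, adjusted by Benjamini-Hochberg over all genes tested. Log2 fold changes are given ± SE. All 34 genes passed the filter on low counts in every comparison. In bulk tissue, fewer hepatocytes and less RNA per hepatocyte cannot be told apart, and this applies to every difference below.

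RefSeq's promoter windows for the GRCr8 rat genome (300 bases each, 250 before and 50 after the annotated start) matched 31 of the 34 genes by symbol. Acaa2, Acadl and Decr1 had no window. The stretches before the start are shown for Acsl1, which was lower in all 5 comparisons with no DEN liver, for Cpt1a, which controls mitochondrial entry, for Acadvl, which held the most nuclear receptor half-sites, for Etfa, which was called in no comparison, and for Hadha and Hadhb, which encode the subunits of 1 enzyme and are transcribed in opposite directions, with 300 bases between their starts. Each is written 5′ to 3′ on the strand of its gene (the plus strand, the strand of Hadha, for the shared stretch). Capitals mark the half-site AGGTCA on either strand.
Cpt1a, chr1:209995910-209996159, plus strand: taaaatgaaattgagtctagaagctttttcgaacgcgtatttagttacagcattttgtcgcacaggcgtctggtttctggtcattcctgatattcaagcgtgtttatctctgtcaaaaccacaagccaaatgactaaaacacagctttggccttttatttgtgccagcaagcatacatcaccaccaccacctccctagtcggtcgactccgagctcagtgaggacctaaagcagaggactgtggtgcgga
Acsl1, chr16:52532393-52532642, minus strand: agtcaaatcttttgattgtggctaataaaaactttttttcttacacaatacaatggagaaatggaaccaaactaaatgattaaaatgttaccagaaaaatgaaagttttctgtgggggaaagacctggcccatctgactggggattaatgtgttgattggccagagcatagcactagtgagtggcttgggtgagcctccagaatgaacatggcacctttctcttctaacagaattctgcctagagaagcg
Acadvl, chr10:55236706-55236955, minus strand: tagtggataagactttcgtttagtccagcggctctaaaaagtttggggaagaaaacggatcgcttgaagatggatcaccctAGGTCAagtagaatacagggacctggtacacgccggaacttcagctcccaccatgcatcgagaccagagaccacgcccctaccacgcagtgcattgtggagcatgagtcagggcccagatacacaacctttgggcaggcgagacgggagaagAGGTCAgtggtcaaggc
Etfa, chr8:64787966-64788215, minus strand: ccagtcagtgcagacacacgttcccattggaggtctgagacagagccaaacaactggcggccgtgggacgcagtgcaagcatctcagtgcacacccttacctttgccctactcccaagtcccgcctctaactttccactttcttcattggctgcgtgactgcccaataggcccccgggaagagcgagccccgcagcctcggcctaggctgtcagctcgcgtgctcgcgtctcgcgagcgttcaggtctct
Hadha and Hadhb, chr6:31907501-31907800, plus strand: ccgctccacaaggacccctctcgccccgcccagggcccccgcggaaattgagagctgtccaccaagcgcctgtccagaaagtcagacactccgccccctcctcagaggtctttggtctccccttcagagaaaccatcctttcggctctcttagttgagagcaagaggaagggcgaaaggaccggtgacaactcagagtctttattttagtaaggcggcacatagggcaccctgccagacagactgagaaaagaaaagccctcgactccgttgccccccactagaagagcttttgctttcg
The half-site was present in 6 of the 31 windows (19.4%; Acadvl, Echs1, Eci1, Eci2, Hadhb and Hsd17b4) and in 5415 of all 33469 windows of the table (16.2%). Acadvl held it 2 times, with first bases 169 and 17 bases before the start, as its letters above show. The pair of exact half-sites with a spacer of 1 base, the arrangement that PPAR-alpha and RXR-alpha are known to bind, was in none of the 31 windows and in 18 of all windows (0.0538%). With the fourth base of each half-site free (AGGNCA), these numbers were 0 of 31 and 139 of all windows (0.415%). Pairs with a mismatch at another base were not searched for. In Acadvl the half-site nearer the start is followed, after 1 base, by tggtca, which differs from AGGTCA in 1 base. The windows of the 31 genes had a median GC content of 60%, from 40.7% for Acsl1 to 73.7% for Ppara, and the median of all windows was 51.7%. These counts describe the letters of 1 annotated start per gene and nothing outside the windows.

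To see how the pathway stood during DEN treatment, NT liver and nodules were compared with the liver of no DEN rats of the same age, so that NT liver and nodules of a time point share their controls. In NT liver, 5 of the 34 genes were lower after 8 weeks of DEN (Acsl1, Cpt1a, Acox3, Hadh and Etfdh), 23 were lower after 14 weeks, and 3 were lower at 20 weeks (Acsl1, Acsl5 and Acadm). In nodules, 26 were lower at 14 weeks and 27 at 20 weeks. The only gene called higher in any of these 5 comparisons was Ppargc1a, in NT liver at 14 weeks. Over all genes tested, 5.21% were called lower and 16.5% higher in NT liver at 8 weeks. The corresponding shares were 9.85% and 22.8% at 14 weeks and 3.82% and 14.3% at 20 weeks. In nodules they were 15.2% lower and 23.9% higher at 14 weeks, and 15.2% and 23.6% at 20 weeks. The lower calls thus took 14.7%, 67.6% and 8.82% of the 34 genes in NT liver at the 3 time points and 76.5% and 79.4% in nodules. The median log2 fold change of the 34 genes was -0.37, -0.59 and -0.38 in NT liver at 8, 14 and 20 weeks, and -0.85 and -0.81 in nodules at 14 and 20 weeks. The medians of all genes tested lay between -0.0078 and 0.020 in these comparisons.

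**Figure D1:**
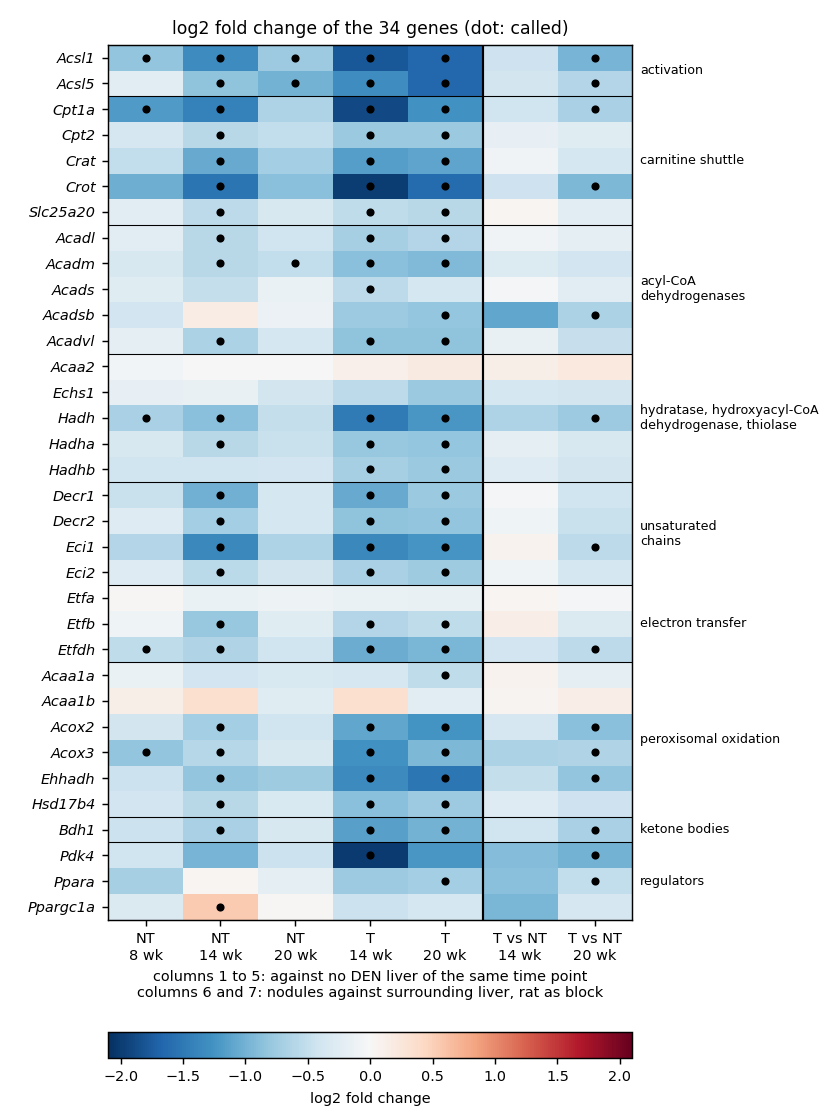
Log2 fold change of the 34 genes (rows, grouped by role) in 7 comparisons (columns), from blue (lower) to red (higher), with a dot where a gene was called. The 2 columns for nodules against no DEN liver hold 26 and 27 dots, the column for NT liver at 14 weeks holds 24 (23 lower, and Ppargc1a higher), and the columns for NT liver at 8 and 20 weeks hold 5 and 3.

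Acsl1 was lower in all 5 comparisons. Cpt1a, Acsl5, Hadh, Acox3, Etfdh and Acadm were lower in 4, and 16 genes in 3 (Crot, Crat, Cpt2, Slc25a20, Acadl, Acadvl, Hadha, Decr1, Decr2, Eci1, Eci2, Etfb, Ehhadh, Acox2, Hsd17b4 and Bdh1, each in NT liver at 14 weeks and in nodules at both time points). Hadhb was lower in nodules at both time points, and Pdk4, Acads, Acadsb, Ppara and Acaa1a were each lower in 1 of the nodule comparisons. Acaa2, Acaa1b, Etfa, Echs1 and Ppargc1a were not lower in any. The 2 counts in NT liver outside 14 weeks depended on single rats. At 8 weeks 12 of the 34 genes were called without DEN rat H17, where 2913 of all 10866 genes tested were called, and 3 without the 2 rats whose numbers carry the letter F, where 1950 of 10963 were. With all rats 2344 of 10812 genes were called. At 20 weeks 12 were called without DEN rat H25 (2054 of all 10845 genes), and 7 without no DEN rat H13 (2111 of 11006), beside 1957 of 10827 genes with all rats.

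Activation of fatty acids is the first step of every route. Acsl1, the main long-chain acyl-CoA synthetase of liver, stood at 3129, 3336, 3483 and 3198 CPM in the 4 no DEN rats at 8 weeks and at 1535, 1697, 2353 and 1870 CPM in NT liver. At 14 weeks it stood at 3797, 3682, 3613 and 3514 CPM without DEN, at 1546, 1313, 1318 and 1550 CPM in NT liver and at 1119, 975, 992 and 1222 CPM in nodules. The values at 20 weeks were 3583, 3546, 3769 and 3718 CPM, 1941, 2463, 2318 and 1799 CPM and 1008, 1932, 1070 and 701 CPM in the same order. At each time point every DEN value lay below every no DEN value, and the no DEN rats were close together. The log2 fold change in NT liver was -0.82 ± 0.12 at 8 weeks, -1.32 ± 0.10 at 14 weeks and -0.76 ± 0.11 at 20 weeks, with adjusted p = 0.00077, 5.02e-06 and 0.00108. Nodules were 3.44-fold lower (log2 -1.78 ± 0.10) at 14 weeks (adjusted p = 5.76e-06) and 3.13-fold lower (log2 -1.65 ± 0.28) at 20 weeks (adjusted p = 0.000962).

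Acsl5, a synthetase linked to lipid storage and to the mitochondrial surface, was first called at 14 weeks. At 8 weeks no DEN rats had 649, 499, 614 and 454 CPM and NT liver 427, 458, 530.4 and 459.7 CPM, and the groups overlapped (log2 fold change -0.25 ± 0.12, adjusted p = 0.139). At 14 weeks the values were 536, 678, 544 and 559 CPM without DEN, 462, 252, 257 and 288 CPM in NT liver and 263, 224, 221 and 243 CPM in nodules. At 20 weeks they were 503, 732, 529.7 and 525 CPM, 363, 207, 219 and 344 CPM and 209, 199, 176 and 153 CPM. From 14 weeks on every DEN value lay below every control of its time point, and in NT liver at 14 weeks rat F06 stood well above the 3 other rats of its group. NT liver was 1.80-fold lower (log2 -0.85 ± 0.19) at 14 weeks and 1.99-fold lower (log2 -0.99 ± 0.21) at 20 weeks (adjusted p = 0.00454 and 0.00835). Nodules were 2.47-fold (log2 -1.31 ± 0.11) and 3.14-fold lower (log2 -1.65 ± 0.16) (adjusted p = 2.92e-05 and 6.29e-05).

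All 5 genes of the carnitine shuttle were lower in NT liver at 14 weeks and in nodules at both time points. Cpt1a encodes the outer-membrane carnitine palmitoyltransferase, the step at which malonyl-CoA controls the entry of long chains. At 8 weeks it stood at 261, 244, 324 and 178 CPM without DEN and at 103, 70.6, 144 and 125 CPM in NT liver. At 14 weeks the values were 267, 270, 395 and 309 CPM without DEN, 196, 83.4, 87.2 and 88.3 CPM in NT liver and 135, 65.6, 68.7 and 68.7 CPM in nodules. In 3 of the 4 DEN rats at 14 weeks NT liver and nodules lay within narrow ranges, and rat F06 lay above them in both tissues. Levels at 20 weeks were 111, 199, 221 and 328 CPM without DEN, 144, 147, 132 and 116 CPM in NT liver and 84.5, 139, 81.9 and 54.4 CPM in nodules, and the no DEN rat H13 lay below all NT values and inside the range of the nodules. NT liver was lower by a log2 fold change of -1.19 ± 0.24 at 8 weeks (adjusted p = 0.00429) and -1.41 ± 0.31 at 14 weeks (adjusted p = 0.00502). At 20 weeks the log2 fold change of -0.66 ± 0.28 was not called (adjusted p = 0.114). Nodules were 3.72-fold lower (log2 -1.90 ± 0.26) at 14 weeks and 2.41-fold lower (log2 -1.27 ± 0.34) at 20 weeks (adjusted p = 0.000354 and 0.0109).

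Crot, the peroxisomal carnitine octanoyltransferase that exports shortened chains, gave the second largest fold of the 34 genes. At 8 weeks it stood at 242, 349, 502 and 310.3 CPM without DEN and at 91.8, 79.6, 275 and 246 CPM in NT liver, where rats F09 and F10 had the low values and H17 and H18 lay inside the control range (adjusted p = 0.0861). At 14 weeks the values were 357, 409.8, 419 and 445 CPM without DEN, 107, 139, 145 and 162 CPM in NT liver and 87.6, 106, 98.7 and 122 CPM in nodules, with a wide gap between controls and DEN rats. The 20-week values were 187, 338, 458 and 319.6 CPM, 118, 257, 178 and 153 CPM and 73.5, 221, 82.1 and 49.3 CPM, and rat H25 lay inside the control range in both tissues. NT liver was 2.89-fold lower (log2 -1.53 ± 0.12) at 14 weeks (adjusted p = 8.12e-06), and nodules were 4.0-fold lower (log2 -2.0 ± 0.12) at 14 weeks (adjusted p = 7.23e-06) and 3.08-fold lower (log2 -1.62 ± 0.45) at 20 weeks (adjusted p = 0.012). Crat, which makes acetylcarnitine, had log2 fold changes of -1.07 ± 0.15 in NT liver at 14 weeks and -1.16 ± 0.16 and -1.11 ± 0.29 in nodules. Cpt2, the inner-membrane partner of Cpt1a, had -0.58 ± 0.084, -0.78 ± 0.13 and -0.78 ± 0.20 in the same comparisons. Slc25a20, the carnitine-acylcarnitine translocase, had the smallest changes of the shuttle, with -0.55 ± 0.080, -0.54 ± 0.10 and -0.58 ± 0.14. Its call in nodules at 14 weeks was lost without rat H21 (-0.47) or with nodule 2 alone (-0.48).

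**Figure D2:**
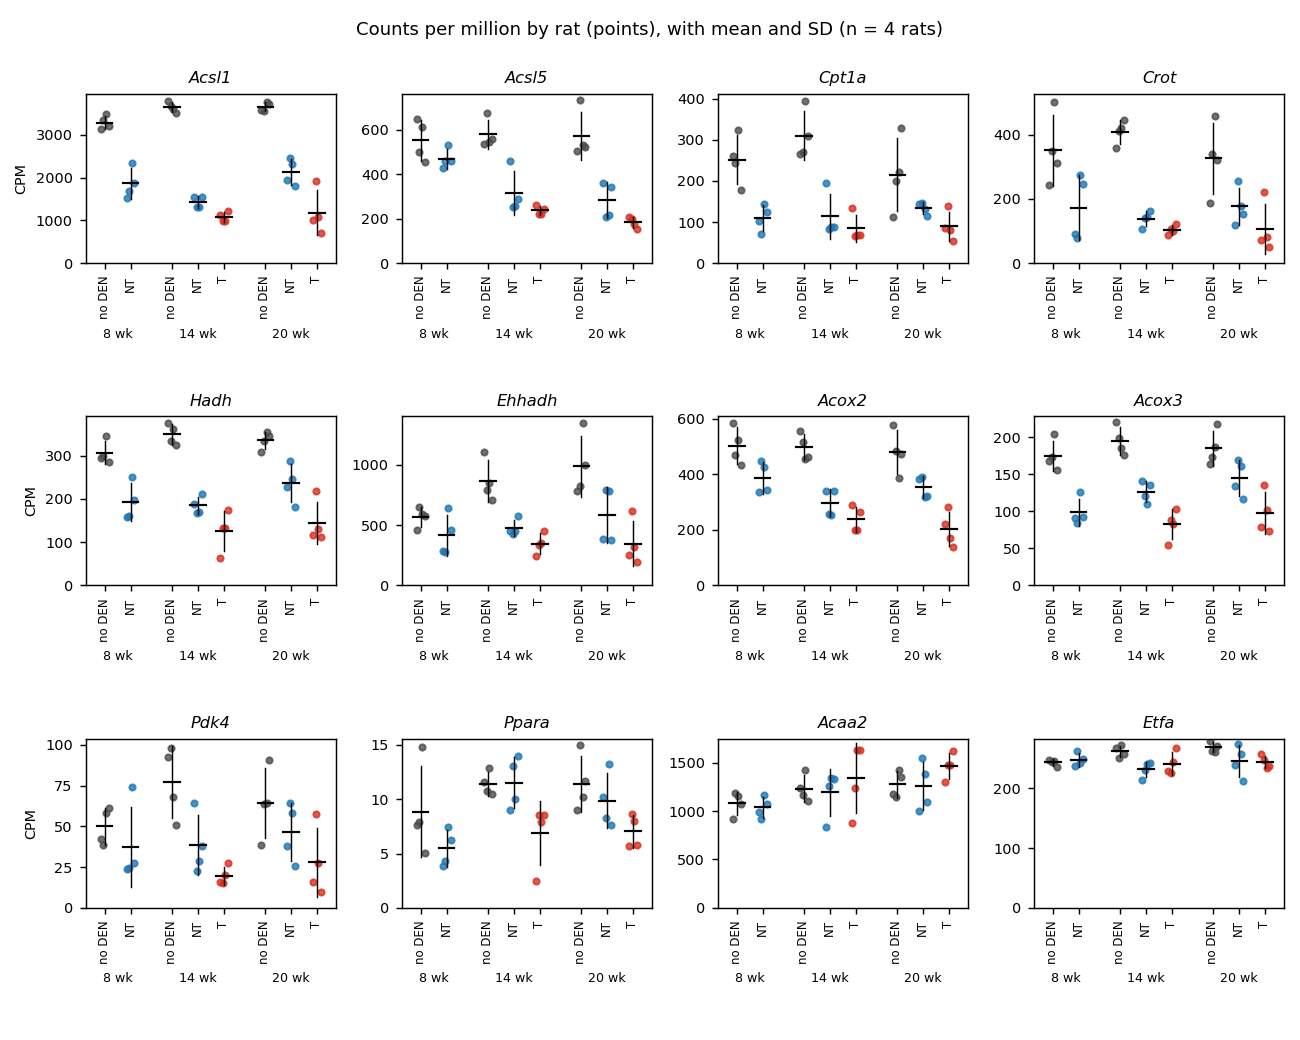
CPM (vertical axis, from 0) of 12 of the genes in each rat (points) of the 8 groups, with mean (horizontal line) and SD (vertical line); grey is no DEN liver, blue NT liver of DEN rats and red nodules. Acsl1 separates every DEN rat from every no DEN rat of its time point, while the Acaa2 groups overlap throughout.

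The acyl-CoA dehydrogenases take the first step of mitochondrial beta-oxidation, each for its own chain length. Acadvl (very long chains), Acadl (long chains) and Acadm (medium chains) were lower in NT liver at 14 weeks and in nodules at both time points. Acadm was also lower in NT liver at 20 weeks, with a log2 fold change of -0.52 ± 0.12 (adjusted p = 0.00866), a call that was lost without DEN rat F03 (-0.48) or H28 (-0.44). In NT liver at 14 weeks the log2 fold changes were -0.58 ± 0.10 for Acadm, -0.66 ± 0.090 for Acadvl and -0.58 ± 0.081 for Acadl. In nodules at 14 and 20 weeks they were -0.89 ± 0.15 and -0.92 ± 0.15 for Acadm, -0.84 ± 0.10 and -0.84 ± 0.16 for Acadvl, and -0.69 ± 0.10 and -0.62 ± 0.12 for Acadl. Acads (short chains) was lower in nodules at 14 weeks (-0.55 ± 0.12, adjusted p = 0.00373), a call that was lost without rat F06 (-0.43) or with nodule 2 alone (-0.45), and in nodules at 20 weeks its log2 fold change of -0.37 ± 0.10 was under the threshold in size (adjusted p = 0.0108). Acadsb, which acts on short branched chains from isoleucine, was not called in NT liver at 14 weeks, where its log2 fold change was 0.15 ± 0.083 (adjusted p = 0.146). It was lower in nodules at 20 weeks (-0.81 ± 0.19, adjusted p = 0.00618), but not called with nodule 2 alone (-0.54, adjusted p = 0.111). At 14 weeks its nodules stood at 6.88, 37.3, 26.3 and 37.0 CPM against 49.6, 40.7, 43.3 and 46.4 CPM without DEN, and the lowest value was that of rat F06 (adjusted p = 0.155). In F06 Acadsb stood at 3.74 CPM in nodule 1 and 9.98 CPM in nodule 2, and at 26.3 to 44.3 CPM in the 6 nodules of the 3 other rats. The library of F06 nodule 1 had the fewest counted pairs of the 40 (20528515) and the highest share of pairs not counted on a gene (45.4%), and their part in its values was not tested. With nodule 2 alone from each rat, 26 of the 34 genes and 4401 of all 11097 were called in nodules at 14 weeks.

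Of the 5 genes for the following mitochondrial steps, 3 were lower in nodules at each time point. Hadh, the 3-hydroxyacyl-CoA dehydrogenase for medium and short chains, was lower in NT liver at 8 weeks (-0.68 ± 0.15, adjusted p = 0.00506) and at 14 weeks (-0.88 ± 0.088, adjusted p = 2.59e-05). Without the 2 rats numbered F the log2 fold change at 8 weeks was -0.44 and was no longer called. Its values at 8 weeks were 295, 299.9, 346 and 286 CPM without DEN and 158, 161, 252 and 197 CPM in NT liver. At 14 weeks they were 375, 333, 362 and 325 CPM without DEN, 189, 168, 170.3 and 212 CPM in NT liver and 64.4, 132, 134 and 175 CPM in nodules. At 20 weeks they were 309, 333, 354 and 346 CPM, 228, 287, 246 and 182 CPM and 117, 217, 131 and 113 CPM. Every DEN value lay below every control of its time point, and in NT liver at 20 weeks the log2 fold change of -0.49 ± 0.12 passed the adjusted p (0.0128) but not the size. Nodules were 2.81-fold lower (log2 -1.49 ± 0.25) at 14 weeks and 2.34-fold lower (log2 -1.23 ± 0.20) at 20 weeks (adjusted p = 0.0012 and 0.000939).

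Hadha and Hadhb, the alpha and beta subunits of the mitochondrial trifunctional protein, whose shared upstream stretch is printed above, were both lower in nodules. In nodules at 14 weeks their log2 fold changes were -0.80 ± 0.11 and -0.70 ± 0.15, and in nodules at 20 weeks -0.80 ± 0.15 and -0.78 ± 0.18. In NT liver at 14 weeks Hadha was called (-0.59 ± 0.073) and Hadhb was under the threshold in size (-0.42 ± 0.10, adjusted p = 0.00326). Acaa2, the mitochondrial thiolase that closes the cycle, was called in none of the comparisons. It stood at 1236, 1168, 1424 and 1101 CPM without DEN, 831, 1262, 1341 and 1337 CPM in NT liver and 873, 1242, 1628 and 1630 CPM in nodules at 14 weeks, and the groups overlapped. Its log2 fold changes against no DEN liver lay between -0.065 ± 0.11 and 0.18 ± 0.13, the second in nodules at 20 weeks (adjusted p = 0.266). Echs1, the short-chain enoyl-CoA hydratase, had only 5 to 64 counts per rat (0.152 to 0.695 CPM), few for an enzyme that liver mitochondria use. Pairs that matched several places had not been counted. Their part in its low count was not tested, and its level and its change are uncertain.

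Unsaturated chains need auxiliary enzymes that move or reduce their double bonds, and all 4 genes of this group were called in the same comparisons. Decr1 and Decr2 (the mitochondrial and peroxisomal 2,4-dienoyl-CoA reductases) and Eci1 and Eci2 (enoyl-CoA isomerases) were each lower in NT liver at 14 weeks and in nodules at both time points. Eci1 stood at 180.4, 301, 279.6 and 294 CPM without DEN and 111, 101, 250 and 227 CPM in NT liver at 8 weeks. The 14-week values were 404, 298, 392 and 286 CPM without DEN, 81.5, 113, 151 and 186 CPM in NT liver and 122, 116, 142 and 167 CPM in nodules. The 20-week values were 251, 232, 521 and 364 CPM, 100.4, 386, 232 and 147 CPM and 98.8, 266, 124 and 97.8 CPM. At 14 weeks the controls lay above all DEN values, and NT liver and nodules overlapped. At 20 weeks the controls themselves ranged widely and rat H25 lay inside their range in both tissues. Eci1 was 2.54-fold lower (log2 -1.35 ± 0.24) in NT liver at 14 weeks (adjusted p = 0.00176) and 2.56-fold lower (log2 -1.36 ± 0.16) in nodules (adjusted p = 0.000164). In nodules at 20 weeks it was 2.36-fold lower (log2 -1.24 ± 0.37) (adjusted p = 0.0172), a call that was lost without DEN rat F03 (log2 fold change -1.07) or without no DEN rat H15 (-0.97). Decr1 had log2 fold changes of -1.01 ± 0.081, -1.06 ± 0.10 and -0.78 ± 0.23 in NT liver at 14 weeks and in nodules at 14 and 20 weeks. Those of Decr2 were -0.72 ± 0.10, -0.85 ± 0.087 and -0.83 ± 0.18, and those of Eci2 -0.56 ± 0.074, -0.68 ± 0.088 and -0.74 ± 0.15.

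The electrons of the dehydrogenases pass through the electron transfer flavoprotein (subunits Etfa and Etfb) to the ubiquinone oxidoreductase Etfdh. Etfdh was lower in NT liver at 8 weeks (-0.53 ± 0.12, adjusted p = 0.00743) and 14 weeks (-0.63 ± 0.074) and in nodules at 14 and 20 weeks (-1.05 ± 0.14 and -0.96 ± 0.15). Its call at 8 weeks was lost without both rats numbered F (-0.34), and without F09 (-0.47), F10 (-0.47) or no DEN rat H07 (-0.46). Etfb was lower in NT liver at 14 weeks (-0.79 ± 0.086, adjusted p = 4.26e-05) and, with overlapping rats, in nodules (-0.62 ± 0.21 and -0.53 ± 0.19, adjusted p = 0.0367 and 0.0349). Its calls in nodules were lost on leaving out any 1 rat except F06 at 14 weeks (log2 fold changes of -0.66 to -0.49), on leaving out H13, H15, H16, H26 or H28 at 20 weeks (-0.56 to -0.40), and with nodule 1 alone at both time points (-0.66 and -0.30). Etfa, the other subunit of the same protein, was not called in any comparison. After 14 weeks it stood at 267, 250.4, 272 and 258 CPM without DEN, 214, 231, 240.4 and 242 CPM in NT liver and 229, 225, 244 and 268 CPM in nodules. NT liver at 14 weeks and nodules at 20 weeks lay just below all of their controls, and the log2 fold change largest in size against no DEN liver was -0.16 ± 0.092 in nodules at 20 weeks. Whether Etfa and Etfb differed from each other in their change was not tested.

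Of the 6 peroxisomal genes, 4 were lower in NT liver at 14 weeks, 4 in nodules at 14 weeks and 5 in nodules at 20 weeks. Acox2 oxidises branched chains and the side chain of bile acid precursors. It stood at 586, 471, 523 and 432 CPM without DEN and at 335, 446, 425 and 342 CPM in NT liver at 8 weeks. At 14 weeks it stood at 555, 517, 455 and 462 CPM without DEN, 339, 258, 255 and 339 CPM in NT liver and 289, 200.4, 199 and 263 CPM in nodules. The 20-week levels were 577, 482, 387 and 474 CPM, 383, 392, 319 and 321 CPM and 221, 282, 170.3 and 139 CPM. Nodules lay below all controls at both time points, and at 20 weeks they also lay below all NT values. The log2 fold changes were -0.71 ± 0.12 in NT liver at 14 weeks (adjusted p = 0.000515), -1.08 ± 0.15 in nodules at 14 weeks and -1.26 ± 0.22 in nodules at 20 weeks (adjusted p = 0.000318 and 0.00122).

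Acox3, which oxidises methyl-branched chains, was already lower at 8 weeks. It stood at 168, 173, 204 and 156 CPM without DEN and at 91.2, 84.9, 126 and 93.1 CPM in NT liver, a log2 fold change of -0.83 ± 0.13 (adjusted p = 0.00107). At 14 weeks the values were 220.3, 199, 186 and 177 CPM without DEN, 141, 121, 110.4 and 136 CPM in NT liver and 55.3, 88.5, 82.9 and 104 CPM in nodules. Those 3 groups did not overlap, and the log2 fold change was -0.59 ± 0.094 in NT liver and -1.26 ± 0.18 in nodules (adjusted p = 0.00041 and 0.000407). At 20 weeks the values were 164, 173, 187 and 218 CPM, 134, 169, 161 and 117 CPM and 79.0, 136, 102 and 73.3 CPM, and nodules were lower by a log2 fold change of -0.94 ± 0.19 (adjusted p = 0.00267) while NT liver was not called (adjusted p = 0.066).

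Ehhadh, the peroxisomal bifunctional enzyme and a well-known PPAR-alpha target, stood at 459.5, 652, 592 and 575 CPM without DEN and at 289.6, 281, 643 and 457 CPM in NT liver at 8 weeks. The 14-week levels were 1108, 791, 852 and 713 CPM without DEN, 454, 425, 449.5 and 577 CPM in NT liver and 244, 339, 352 and 454 CPM in nodules. Levels at 20 weeks were 783, 826, 1344 and 1001 CPM, 384, 791, 784 and 376 CPM and 254, 619, 320 and 193 CPM. In NT liver at 20 weeks rats H25 and H26 lay at the lower end of the control range and the other rats far below it. Ehhadh was 1.78-fold lower (log2 -0.83 ± 0.14) in NT liver at 14 weeks, and 2.54-fold (log2 -1.34 ± 0.20) and 2.88-fold lower (log2 -1.52 ± 0.34) in nodules at 14 and 20 weeks (adjusted p = 0.000604, 0.000618 and 0.00431). Hsd17b4, the other bifunctional enzyme, had log2 fold changes of -0.58 ± 0.078, -0.87 ± 0.12 and -0.76 ± 0.14 in the same comparisons. The peroxisomal thiolase genes Acaa1a and Acaa1b are close paralogues. Read pairs that matched more than 1 place were not counted, so the share of each gene is uncertain. Acaa1a was lower in nodules at 20 weeks (-0.54 ± 0.17, adjusted p = 0.021), but the call was lost on leaving out F03, H26, H28, H15 or H16 (log2 fold changes of -0.54 to -0.41) or with nodule 1 alone (-0.48). Acaa1b was not called in any comparison, with log2 fold changes from -0.26 ± 0.47 to 0.34 ± 0.29.

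Among ketone body genes, Bdh1, the mitochondrial enzyme that makes beta-hydroxybutyrate, was the 1 member of the 34. It stood at 336, 322, 381 and 293 CPM without DEN and at 226, 236, 279 and 238 CPM in NT liver at 8 weeks. After 14 weeks it stood at 358, 341, 372 and 303 CPM without DEN, 251, 188, 189 and 209 CPM in NT liver and 166, 146, 151 and 169 CPM in nodules. The 20-week levels were 275, 292, 327 and 341 CPM, 261, 269.7, 249 and 188 CPM and 169, 213, 143 and 103 CPM. Every DEN value lay below every control of its time point. NT liver was called at 14 weeks (-0.68 ± 0.11, adjusted p = 0.000344), and at 8 weeks the log2 fold change of -0.45 ± 0.10 was under the threshold in size (adjusted p = 0.00592). Nodules were 2.20-fold lower (log2 -1.14 ± 0.10) at 14 weeks and 1.99-fold lower (log2 -0.99 ± 0.20) at 20 weeks (adjusted p = 3.1e-05 and 0.00264).

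Of a list of 6 other ketone body genes, 4 are set beside Bdh1 here. They give no count for the whole list, and their directions do not stand for it. Oxct1, the enzyme by which other tissues use ketone bodies and which hepatocytes express little, was higher in all 5 comparisons. It stood at 1.91, 1.48, 1.28 and 1.52 CPM without DEN, 4.13, 3.78, 5.18 and 4.20 CPM in NT liver and 3.99, 5.24, 3.91 and 3.85 CPM in nodules at 14 weeks, and its log2 fold changes ran from 1.12 ± 0.19 in NT liver at 8 weeks to 1.51 ± 0.16 in NT liver at 14 weeks. Bdh2, a cytosolic dehydrogenase of the same family, was higher in NT liver at 14 and 20 weeks (1.32 ± 0.22 and 1.23 ± 0.17) and in nodules (1.85 ± 0.19 and 2.0 ± 0.20). Acat1 was called in none, and Slc16a1, a carrier of ketone bodies and lactate, was lower in NT liver at 8 weeks (-0.63 ± 0.17) and in nodules (-1.03 ± 0.27 and -0.68 ± 0.15).

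**Figure D3:**
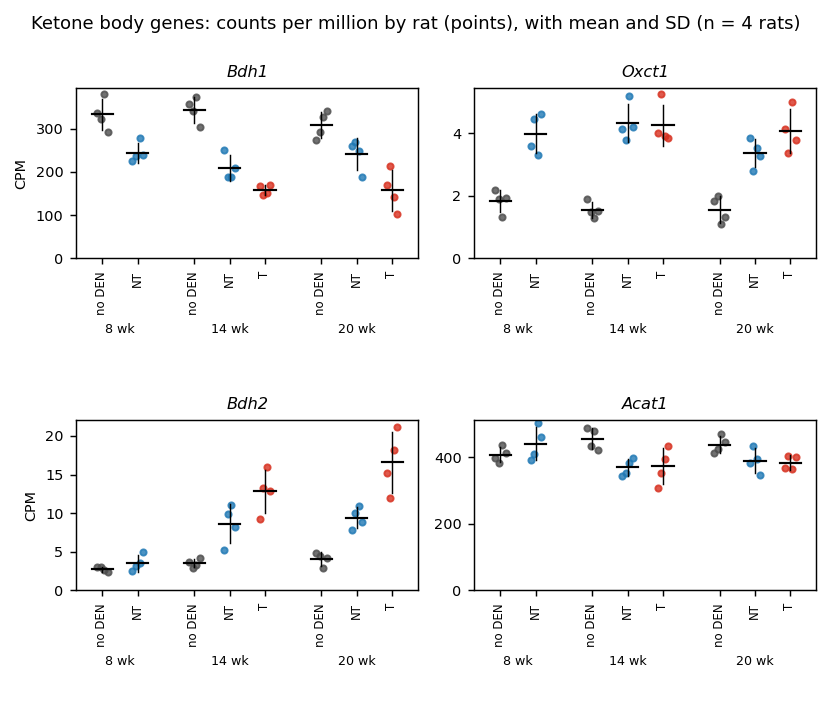
CPM (vertical axis, from 0) of Bdh1 and 3 further ketone body genes in each rat (points) of the 8 groups, with mean (horizontal line) and SD (vertical line); grey is no DEN liver, blue NT liver of DEN rats and red nodules. Bdh1 lies lower in nodules than in every control of the same time point, and Oxct1 and Bdh2 lie higher.

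Each of the 3 regulators was called in 1 comparison with no DEN liver, and these comparisons differed. Pdk4 inhibits pyruvate dehydrogenase and so spares glucose when fat is burnt. It stood at 42.3, 38.3, 58.2 and 61.5 CPM without DEN and at 23.8, 24.3, 74.1 and 27.5 CPM in NT liver at 8 weeks, where rat H17 stood apart. The 14-week levels were 92.3, 98.1, 67.9 and 51.0 CPM without DEN, 64.4, 22.3, 28.6 and 38.1 CPM in NT liver and 15.7, 15.1, 19.8 and 27.3 CPM in nodules. At 20 weeks the values were 38.4, 63.7, 64.5 and 90.7 CPM, 38.2, 64.3, 58.5 and 25.9 CPM and 15.8, 57.9, 27.8 and 9.97 CPM. Only the nodules at 14 weeks lay below all of their controls. They were 4.03-fold lower (log2 fold change -2.01 ± 0.25, adjusted p = 0.000234), the largest fold of the 34 genes, while adjusted p was 0.0502 in NT liver at 14 weeks and 0.0542 in nodules at 20 weeks.

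Ppara, the receptor itself, had 125 to 2235 counts per rat. It stood at 7.65, 7.91, 14.8 and 5.02 CPM without DEN and at 3.85, 4.29, 7.46 and 6.29 CPM in NT liver at 8 weeks. After 14 weeks it stood at 11.6, 10.8, 12.9 and 10.5 CPM without DEN, 9.05, 13.1, 10 and 14.0 CPM in NT liver and 2.48, 8.59, 7.87 and 8.51 CPM in nodules. Levels at 20 weeks were 9.01, 15.0, 10.2 and 11.6 CPM, 10.2, 8.31, 13.3 and 7.59 CPM and 5.66, 8.68, 7.97 and 5.81 CPM. NT liver overlapped the controls at every time point, with log2 fold changes of -0.70 ± 0.33, 0.046 ± 0.14 and -0.19 ± 0.19 (adjusted p = 0.124, 0.795 and 0.505). Nodules lay below all controls at both time points. The log2 fold change was -0.76 ± 0.33 at 14 weeks (adjusted p = 0.0848) and -0.72 ± 0.19 at 20 weeks (adjusted p = 0.0107). In the nodules of rat F06 Ppara stood at 1.48 and 3.48 CPM, and with nodule 2 alone from each rat its log2 fold change at 14 weeks was -0.91 and was called by edgeR, while that at 20 weeks was -0.40 and was no longer called (adjusted p = 0.177). Ppargc1a, the coactivator PGC-1-alpha, was higher in NT liver at 14 weeks, with 2.99, 2.25, 2.27 and 2.30 CPM against 1.56, 1.80, 1.53 and 1.99 CPM (log2 fold change 0.54 ± 0.17, adjusted p = 0.018), and it was not called in nodules at 14 weeks (1.02, 1.41, 1.24 and 1.44 CPM, adjusted p = 0.0802). Its call in NT liver was lost without DEN rat F06 (log2 fold change 0.42) and without no DEN rat H09 (0.49) or H11 (0.48).

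To ask whether nodules differed from the liver around them, the 2 tissues of the same DEN rats were compared. Without regard to the rat, edgeR called 0 of the 34 genes at 14 weeks and 0 at 20 weeks, and 0% of all genes tested at either time point. At an unadjusted p of 0.05, 8 of the 34 genes passed at 14 weeks and 12 at 20 weeks, beside 1348 of 11466 and 2767 of 11546 genes in all, and DESeq2 called 1 and 6 of the 34 (35 and 902 genes in all). NT liver and nodules came from the same animals, and with the rat as a replicate block 14 of the 34 genes were lower in nodules at 20 weeks and none was higher. Over all genes tested 5.46% were called lower and 9.21% higher in that comparison. The 14 were Acsl1, Acsl5, Cpt1a, Crot, Acadsb, Hadh, Eci1, Etfdh, Acox2, Acox3, Ehhadh, Bdh1, Pdk4 and Ppara. At 14 weeks the paired comparison called 0 of the 34 and 0% of all genes, with 19 of the 34 and 2518 of 11466 genes at an unadjusted p of 0.05.

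Within each of the 4 rats at 20 weeks, 28 to 33 of the 34 genes were lower in the nodules than in the NT liver of the same animal. The median log2 ratio was -0.37 in F03, -0.25 in H25, -0.61 in H26 and -0.43 in H28, while the medians of all genes lay between -0.0077 and 0.021. At 14 weeks 23 to 30 were lower, with medians of -0.37 in F06, -0.20 in H21, -0.19 in H22 and -0.15 in H23, beside medians of all genes from 0.0034 to 0.055. The largest paired log2 fold changes at 20 weeks among the called genes were those of Pdk4 (-0.99 ± 0.24, adjusted p = 0.0372), Acsl1 (-0.97 ± 0.16, 0.000953), Crot (-0.94 ± 0.24, 0.0376), Acox2 (-0.88 ± 0.12, 0.000218) and Ehhadh (-0.83 ± 0.14, 0.00165). Those of Hadh, Bdh1 and Cpt1a were -0.77 ± 0.10, -0.69 ± 0.10 and -0.69 ± 0.15. Acadsb, Acox3, Acsl5, Etfdh, Eci1 and Ppara had -0.67 ± 0.12, -0.63 ± 0.091, -0.61 ± 0.18, -0.55 ± 0.090, -0.54 ± 0.12 and -0.51 ± 0.14. Acaa2 had 0.21 ± 0.13 (adjusted p = 0.236). Leaving out rat H25, whose median ratio was the nearest to 0 at 20 weeks, the comparison without the block called 6 of the 34 genes and 445 of all 11598.

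**Figure D4:**
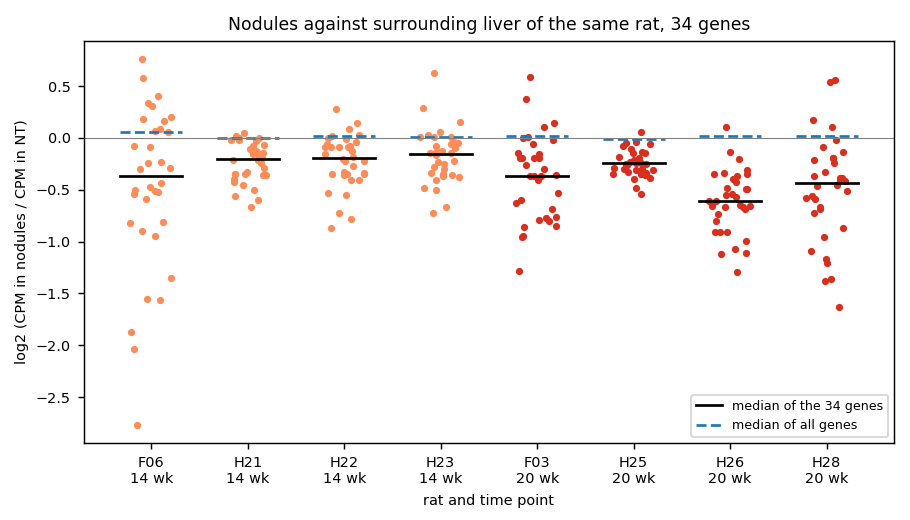
Log2 ratio of CPM in the nodules to CPM in the NT liver of the same rat (vertical axis) for the 34 genes (points) in each of the 8 DEN rats with nodules (horizontal axis), with the median of the 34 genes (black line) and of all genes (dashed blue line). The medians of the 34 genes lie between -0.61 and -0.15, below those of all genes in each rat, and rat F06 has the widest spread.

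The 2 nodules of a rat differed among themselves as well. The median absolute log2 difference of the 33 genes compared lay between 0.19 and 0.38 across the 8 rats, beside 0.14 to 0.37 over all genes. The 33 genes did not include Echs1. Nodule 1 was lower than nodule 2 for 25 to 27 of the 33 genes in the 4 rats at 14 weeks (median log2 ratios of -0.25 to -0.12). At 20 weeks it was lower for 30 of the 33 in rat H25 (median -0.38), and for 12, 6 and 9 in F03, H26 and H28 (medians of 0.15, 0.17 and 0.22). In rat F03 Acadsb stood at 9.17 CPM in nodule 1 and 34.2 CPM in nodule 2, the largest difference between nodules. Ppara stood at 3.06 and 7.86 CPM in these nodules and Etfb at 415 and 190 CPM. The share of pairs not counted on a gene was 41.3% in F03 nodule 1, the second highest of the 40 libraries, and 34.3% in nodule 2, and its part was not tested. Across the 8 nodules of each time point Cpt1a ranged from 62.8 to 141 CPM (median 72.6) at 14 weeks and from 49.4 to 162 CPM (median 86.5) at 20 weeks. Nodules of 1 rat are not independent, and no test was made between them.

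Time alone was examined in the no DEN rats. From 8 to 14 weeks edgeR called 0 of the 34 genes and 0% of all genes, and the same held from 14 to 20 weeks (0 of 34, 0%). At an unadjusted p of 0.05, 11 of the 34 genes passed between 8 and 14 weeks (1038 of 10486 genes in all) and 1 between 14 and 20 weeks (670 of 10432), and DESeq2 called 1 and 0, beside 20 and 18 genes in all. The median log2 change of the 34 genes was 0.16 from 8 to 14 weeks, with 2 estimates below 0, and -0.010 from 14 to 20 weeks. Without no DEN rat H07, 3 of the 34 genes and 117 of all 10553 were called between 8 and 14 weeks.

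Whether the effect of DEN in NT liver differed between time points was tested by interaction. Between 8 and 14 weeks 2 of the 34 genes changed their response at an adjusted p of at most 0.05, beside 8.96% of all genes. Acadvl had log2 fold changes of -0.21 ± 0.078 at 8 weeks and -0.66 ± 0.090 at 14 weeks (difference -0.45 ± 0.11, adjusted p = 0.0241), and Etfb had -0.10 ± 0.10 and -0.79 ± 0.086 (difference -0.69 ± 0.14, adjusted p = 0.00855). Without the rats numbered F 10 of the 34 genes and 1086 of all 11400 were called in this test. Leaving out single rats gave 1 to 6 of the 34, with 622 of 11333 genes called without H11 (1 of the 34, the call of Acadvl being lost) and 1031 of 11274 without H23 (6 of the 34). Between 14 and 20 weeks, when injections had stopped, 0 of the 34 genes passed (0.738% of all genes did), so that the different numbers of calls at 14 and 20 weeks do not show a difference for any single gene. In this test 7 of the 34 genes had an unadjusted p of at most 0.05, beside 1912 of 11245 genes, and DESeq2 called 2 (381 genes in all). For the effect in nodules, edgeR and DESeq2 called a difference between 14 and 20 weeks in 0 of the 34 genes, with 0 of them at an unadjusted p of 0.05 (378 of 11607 genes in all), and 0.0862% of all genes were called.

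A further list of 57 genes of fatty acid handling, set beside the 34, was described in the same way. In NT liver 19, 24 and 13 of them were lower and 4, 8 and 5 higher at 8, 14 and 20 weeks, of 52, 54 and 52 tested. In nodules 35 of 54 were lower and 6 higher at 14 weeks, and 30 of 53 were lower and 5 higher at 20 weeks. The shares of all genes were 5.21%, 9.85% and 3.82% lower and 16.5%, 22.8% and 14.3% higher in NT liver. In nodules they were 15.2% lower at both time points, and 23.9% and 23.6% higher. Among 22 PPAR-alpha targets and uptake genes, 16 of the 22 tested were lower in nodules at 14 weeks and 1, Aqp7, was higher, beside 15.2% and 23.9% of all genes. The lower genes included Fabp1, the liver fatty acid binding protein (-1.77 ± 0.20), Slc27a5, a bile acid and fatty acid CoA ligase (-1.48 ± 0.24), Pex11a, a peroxisome proliferation factor (-1.94 ± 0.17), Angptl4, an inhibitor of lipoprotein lipase (-1.75 ± 0.43), and Plin2, a lipid droplet coat protein (-1.33 ± 0.19). Fabp1 stood at 7010, 7317, 8725 and 7786 CPM without DEN and at 3148, 1561, 2117 and 2379 CPM in nodules. The omega-hydroxylases Cyp4a1, Cyp4a2 and Cyp4a3 were also lower (-1.67 ± 0.21, -2.71 ± 0.30 and -2.08 ± 0.17), but they are related genes, and pairs that matched several places were not counted, so the level of each is uncertain.

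The further list also held regulators of the pathway and other isoforms of its enzymes. Of 11 regulators tested, 2, 4 and 3 were lower and 1, 1 and 2 higher in NT liver at 8, 14 and 20 weeks, while in nodules 7 were lower and 1 higher at 14 weeks and 5 lower and 2 higher at 20 weeks. Over all genes 5.21%, 9.85% and 3.82% were lower and 16.5%, 22.8% and 14.3% higher in NT liver. In nodules 15.2% of all genes were lower at both time points, and 23.9% and 23.6% were higher. Of 4 other isoforms tested, 1, 1 and 0 were higher in NT liver at the 3 time points, 1 and 0 were higher in nodules, and 0 were lower. Beside the shares of all genes just given, 1 of 4 does not set the isoforms apart. Pdk3, a pyruvate dehydrogenase kinase that liver expresses little, stood at 0.813, 0.920, 0.923 and 0.695 CPM without DEN, 1.85, 4.29, 5.31 and 3.35 CPM in NT liver and 3.53, 4.84, 7.17 and 9.13 CPM in nodules at 14 weeks. It was higher in all 5 comparisons, by 7.25-fold in nodules at 14 weeks (adjusted p = 0.000115), and 3.01-fold higher in nodules than in NT liver at 20 weeks in the paired comparison (adjusted p = 4.05e-06). Pdk1 was lower in all 5 (-1.42 ± 0.16 in nodules at 14 weeks). Acsl3, a synthetase of lipid droplets, was higher in NT liver at 8 and 14 weeks and in nodules at 14 weeks (0.63 ± 0.16, 0.95 ± 0.13 and 0.76 ± 0.23). Aqp7, a glycerol channel, had no count in any no DEN rat and 0.688 to 1.78 CPM in nodules at 14 weeks. Rxra, the partner of Ppara, stood at 137, 125, 111 and 95.1 CPM without DEN, 67.3, 75.1, 50.2 and 72.2 CPM in NT liver and 6.71, 44.3, 27.0 and 48.7 CPM in nodules at 14 weeks, and was lower in NT liver at 14 and 20 weeks (-0.79 ± 0.14 and -0.61 ± 0.15) and in nodules (-1.91 ± 0.49 and -1.41 ± 0.25).

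Markers of the cell types that liver tissue can hold differed between the same groups. Of 9 hepatocyte markers, 3, 6 and 1 were lower and 0, 1 and 1 higher in NT liver at 8, 14 and 20 weeks, and in nodules 7 were lower and 1 higher at 14 weeks and 6 and 1 at 20 weeks. Of all genes, 5.21%, 9.85% and 3.82% were lower and 16.5%, 22.8% and 14.3% higher in NT liver. In nodules 15.2% of all genes were lower at both time points, and 23.9% and 23.6% were higher. The median log2 fold change of the 9 markers was -0.21, -0.60 and -0.21 in NT liver and -0.88 and -0.58 in nodules, beside -0.37, -0.59, -0.38, -0.85 and -0.81 for the 34 genes. The summed level of the 9 markers at 14 weeks was 282000 to 316000 CPM without DEN, 188000 to 231000 CPM in NT liver and 167000 to 198000 CPM in nodules, and none of the 9 was at 0. All 5 cholangiocyte markers tested were higher in NT liver at 14 and 20 weeks and in nodules, with a sum of 16.1 to 23.6 CPM without DEN, 38.6 to 86.9 CPM in NT liver and 64.2 to 116 CPM in nodules at 14 weeks. The 4 proliferation markers summed to 13.3 to 18, 58.6 to 148 and 66.0 to 162 CPM in the same groups. The sum of the stellate cell and fibroblast markers was 188 to 237, 348 to 462 and 394 to 475 CPM (Col1a2 had no count in any library), that of the endothelial markers 89.2 to 137, 183 to 228 and 181 to 221 CPM, that of the macrophage markers 232 to 350, 221 to 589 and 227 to 522 CPM, and that of the leukocyte markers 21.7 to 28.6, 33.2 to 59.0 and 32.9 to 47.6 CPM. Adipocyte markers summed to 0.360 to 0.674, 7.65 to 13.1 and 13.2 to 17.7 CPM, with Fabp4 the 1 marker tested, and skeletal muscle markers to at most 1.32 CPM in any rat of these groups. The part of cell composition in the lower levels of the 34 genes was not tested.

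DEN rats carried numbers with the letters F or H (2 F rats at 8 weeks, and 1 each at 14 and 20 weeks), whereas all no DEN rats carried H. Within the 5 DEN groups the F rats lay below every H rat in all 5 for Acaa1b, Acaa2, Cpt2 and Hadhb (4 of the 34 genes, beside 4.64% of 11596 genes). They lay below every H rat in 4 groups for Crat, Crot, Acadl, Acadm, Hadha and Ppara (6 of the 34, beside 9.4%). NT liver and nodules of a time point hold the same F rat, so the 5 groups are not independent. Acaa1b stood at 54.0 and 55.0 CPM in F rats and 141 and 143 CPM in H rats at 8 weeks. F rats lay above every H rat in 4 groups for Acsl5 (13.6% of all genes in 4 or 5 groups) and in 3 for Etfb (13.3%). What the letter stands for is not given in the sources used here, and its part was not tested. Without the F rats, 24, 25 and 25 of the 34 genes were called in NT liver at 14 weeks and in nodules at 14 and 20 weeks, and 3 and 2 in NT liver at 8 and 20 weeks. Over all genes 3867 of 11146, 4686 of 11294 and 4095 of 11046 were called in the first 3 comparisons, and 1950 of 10963 and 1774 of 10827 in the other 2. The median log2 fold change in NT liver at 8 weeks was then -0.17.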

How the data were processed

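Liver RNA of 24 rats was sequenced by the authors as 40 libraries of paired reads with a stranded kit. The authors aligned the reads to the rn6 genome with STAR 2.7.1a and counted pairs per gene with HTSeq on the reverse strand, leaving out pairs that matched several places. The annotation release is not given in the sources used here. The deposited values are raw counts per gene, 20528515 to 160622633 per library. HTSeq's summary lines, 32.85% to 45.45% of all pairs in the files, were left out.

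Both nodules of an animal were summed into 1 count per gene. Groups were compared with edgeR 4.0.16 (filter on low counts, TMM scaling, robust quasi-likelihood test, Benjamini-Hochberg adjustment over all genes), fitted within the groups of each comparison, in R 4.3.3. The scripts were tested on simulated data. DESeq2 1.42.0, RLE scaling, no filter, 1 fit of all groups, single nodules, stricter thresholds, leaving out rats and a replicate block were tried as alternatives. Nodules and NT liver with the same rat number came from the same animal, and their deviations from the group means correlated by 0.37 to 0.54 within the 8 rats (over 11596 genes). The labels name separate rats, and no libraries of a group agreed within sampling noise. Ratios within a rat over all genes used a pseudocount of 0.1 CPM.

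The 34 genes and the other gene lists were chosen with earlier results of these data known. Every called gene of the 34 is named. Values of all rats are given for the 10 called genes with the largest log2 fold change against no DEN liver, the 5 largest in the paired comparison of nodules with NT liver, and Cpt1a, Ppara, Bdh1 and Pdk4. Results for some genes of the further list are not reported here.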

Additional observations from a re-analysis of the deposited data

Results flagged for a closer look

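In 7 of the 96 groups of 4 rats examined (12 genes in 8 groups), the highest or lowest rat was farther from the nearest other rat than Dixon's critical value allows, and chance gives this in about 1 in 20 groups. Rat F06, a DEN rat at 14 weeks, accounted for 3 of them. Its Cpt1a level was 196 CPM in NT liver, where the next highest rat had 88.3 CPM, and 135 CPM in nodules, where the next had 68.7 CPM. Its Ppara level in nodules was 2.48 CPM, and the next lowest rat had 7.87 CPM. Pdk4 stood at 74.1 CPM in NT liver of DEN rat H17 at 8 weeks, and the next highest rat had 27.5 CPM. Eci1 stood at 266 CPM in the nodules of rat H25 at 20 weeks, beside 124 CPM in the next. Among the controls, Acsl5 stood at 678 CPM in rat H10 at 14 weeks and at 732 CPM in rat H14 at 20 weeks, where the next highest rats had 559 and 530 CPM.

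The effect of DEN in NT liver differed between 8 and 14 weeks for 2 of the 34 genes in edgeR's interaction test, beside 8.96% of all genes tested. The difference in log2 fold change was -0.449 for Acadvl and -0.692 for Etfb, lower at 14 weeks in both.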

How the results depend on the processing

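Of the 2301 alternatives of 13 genes (156 pairs of gene and comparison), 65 changed the sign of the estimate, 0 of them in a called gene, 2209 kept their side of the threshold, 11 lost it and 81 gained it, and the cause was not tested. Of the 34 genes, DESeq2 called 8 in NT liver at 20 weeks (edgeR 3, and 2255 of 12258 beside 1957 of 10827 genes in all), 1 and 6 in nodules against NT liver at 14 and 20 weeks (edgeR 0), 1 between no DEN rats at 14 and 8 weeks (edgeR 0), and 7 and 2 in the interactions of NT liver between 8 and 14 and between 14 and 20 weeks (edgeR 2 and 0). Over all genes DESeq2 called 1529, 381 and 29 in the 3 interactions (edgeR 1005, 83 and 10) and 35 and 902 in nodules against NT liver (edgeR 0). For nodules against NT liver at 20 weeks, 1 fit of all 8 groups called 7 of the 34 and 1096 genes in all, nodule 1 alone 3 and 218, and the rat as replicate block 14 and 1693. At a log2 fold change of 1 and an adjusted p of 0.01, 1, 6 and 0 genes remained called in NT liver at 8, 14 and 20 weeks and 14 and 5 in nodules, beside 7.91%, 15.2%, 5.22%, 18.7% and 17.4% of all genes. By adjusted p alone, 13 and 11 were called in NT liver at 8 and 20 weeks, beside 35.3% and 27.6% of all genes. Without the rats numbered F, 3 were called in NT liver at 8 weeks, and 10 and 1 in the interactions of NT liver, the second with 182 genes in all. Leaving out 1 rat gave 4 to 12 in NT liver at 8 weeks, 2 to 12 at 20 weeks, 0 to 6 in nodules against NT liver at 20 weeks, 0 to 3 between no DEN rats at 14 and 8 weeks (3 without H07), and 1 to 6 and 0 to 2 in the interactions of NT liver (6 without H23, 4 without F06, F09 or H17 and 1 without H11 in the first, and 2 without F06 and 1 without H26 or H28 in the second). The number of all genes called also differed between such fits, as given above for H11 and H23 in the first interaction. The share of lower calls among the called genes in NT liver at 8 weeks was 34.1% without H17 and 24% with all rats. With no filter on low counts the median of all genes was 0.131 and 0.11 in nodules at 14 and 20 weeks (0.00165 and 0.007 with it). Over the comparisons of 2 groups without the block, 59 calls of the 34 genes were lost at the stricter thresholds, which were not applied to the interactions. The 14 calls with the rat as block were given no alternatives, and none reached a log2 fold change of 1 (largest in size -0.988). Of the 87 other calls, those of the interactions among them, 13 were lost in at least 1 alternative that kept the thresholds. The 13 were Hadh and Etfdh in NT liver at 8 weeks, Ppargc1a at 14 and Acadm at 20 weeks, Slc25a20, Acads and Etfb in nodules at 14 weeks, Acadsb, Acaa1a, Etfb, Eci1 and Ppara in nodules at 20 weeks, and Acadvl in the interaction. The losses stand beside each gene above, other than those of Ppargc1a (0.512) and Ppara in nodules at 20 weeks (-0.702) in 1 fit of all groups.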
